A study of Mus musculus with 12 samples.

Results

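The oocyte linker histone H1foo, the somatic-type linker histone H1f0, 6 histone chaperone genes (Npm2, Npm3, Hira, Asf1a, Asf1b and Nasp) and the 2 genes of the replacement histone H3.3 (H3f3a and H3f3b) were followed in mouse oocytes by RNA sequencing. These 10 genes were chosen by name, and all 10 were among the 24062 genes of the count table. Donors were 6 females on a high-fat diet, abbreviated HFD, and 6 on a control diet, abbreviated CD, each fed for 9 weeks. The labels call the HFD a modified, high-calorie form of D12492 (E15741-34) and give D12492 itself as the CD, which leaves the control feed undefined. Females of both diets were fed CD during mating with vasectomized males, and oocytes were collected on day 0.5 after coitus. Pools of 4 oocytes gave 1 library each, 6 per diet. Strain and age were not given in the sources used here. Nothing ties a pool to a female, so a p-value measures only how these pools vary, which may in part be technical.

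Histone chaperones carry newly made or stored histones and hand them to DNA. The egg stores both histones and chaperones for the time after sperm entry, when protamines leave the paternal genome and H3.3 is laid down on it before DNA replication. HIRA deposits H3.3 outside replication. ASF1 hands H3-H4 dimers to HIRA or to the replication-coupled factor CAF-1. NASP guards a store of soluble H3-H4, and nucleoplasmin, the product of Npm2, is a chaperone that was first found in frog eggs. H1FOO replaces somatic linker histones in oocyte chromatin during growth and is lost in the early embryo.

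Depth, as the sum of gene counts as deposited, was 8409491 to 13793598 in HFD libraries and 8556396 to 10477316 in CD libraries. All 11 oocyte identity markers passed the filter on low counts, and their summed level was 12445 to 28517 CPM (a count divided by library size after TMM scaling) in HFD and 10310 to 19836 CPM in CD, higher in HFD (two-sided exact permutation test, p = 0.0260, unadjusted over the 5 marker lists). Dppa3 gave 46.1% of the oocyte sum. The oocyte growth factors Gdf9 and Bmp15, from the same list, averaged 4282 and 621 CPM in HFD, against 4692 and 812 CPM in CD. Both were lower in HFD on average, so the sum does not stand for each marker. Summed levels of 28 cumulus and granulosa markers were 413 to 2134 CPM in HFD and 406 to 1519 CPM in CD (two-sided exact permutation test, p = 0.957). Serpine2 gave 69.1% of this sum, while Amh, Amhr2, Ptx3, Areg and Btc were at 0 in all libraries. Oviduct markers summed to 7.73 to 115 CPM in HFD and 14.8 to 217 CPM in CD, blood and immune markers to 0 to 0.662 CPM in HFD and 0 to 3.52 CPM in CD, and sperm markers, 85.1% of them Prm2, to 3.75 to 20.2 CPM in HFD and 0.945 to 5.99 CPM in CD (two-sided exact permutation test, p = 0.0216). What part the marker sums have in the differences below was not tested. HFD replicate 3 stood apart, with 14755 genes detected against 12229 to 12772 in the other HFD libraries. All counts were even in 4 of the 6 HFD libraries (replicates 1, 2, 4 and 6), and no CD library showed this, so all-even counts and HFD cannot be told apart in those 4. Whether their counts were doubled was not given in the sources used here. If they were, the depth above is too high for those 4.

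The chosen genes spanned a wide range of levels, set here per kilobase of transcript so that genes can be compared. H1foo had the highest level per length, at 10320 ± 7961 CPM per kb in HFD and 8193 ± 5162 CPM per kb in CD (SD, n = 6 pools per diet, as for all values with ±). It was the highest of the 10 genes in 11 of 12 libraries, and H3f3b exceeded it in CD replicate 4. H3f3b came next, at 2222 ± 881 CPM per kb in HFD and 1565 ± 448 CPM per kb in CD. Asf1b (645 ± 241 CPM per kb in HFD and 650 ± 189 in CD), Asf1a (851 ± 288 and 429 ± 97.8 CPM per kb in HFD and CD) and Npm2 (764 ± 306 and 320 ± 145 CPM per kb in HFD and CD) formed a middle group whose order changed between libraries. H1f0 and Nasp followed, at 70.6 ± 28.1 and 47.5 ± 21.8 CPM per kb in HFD against 76.0 ± 21.8 and 39.9 ± 13.7 CPM per kb in CD, and their ranges overlapped. H3f3a, Npm3 and Hira were the lowest, and Hira stayed between 0.0295 and 0.621 CPM per kb in the 12 libraries.

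**Figure D1:**
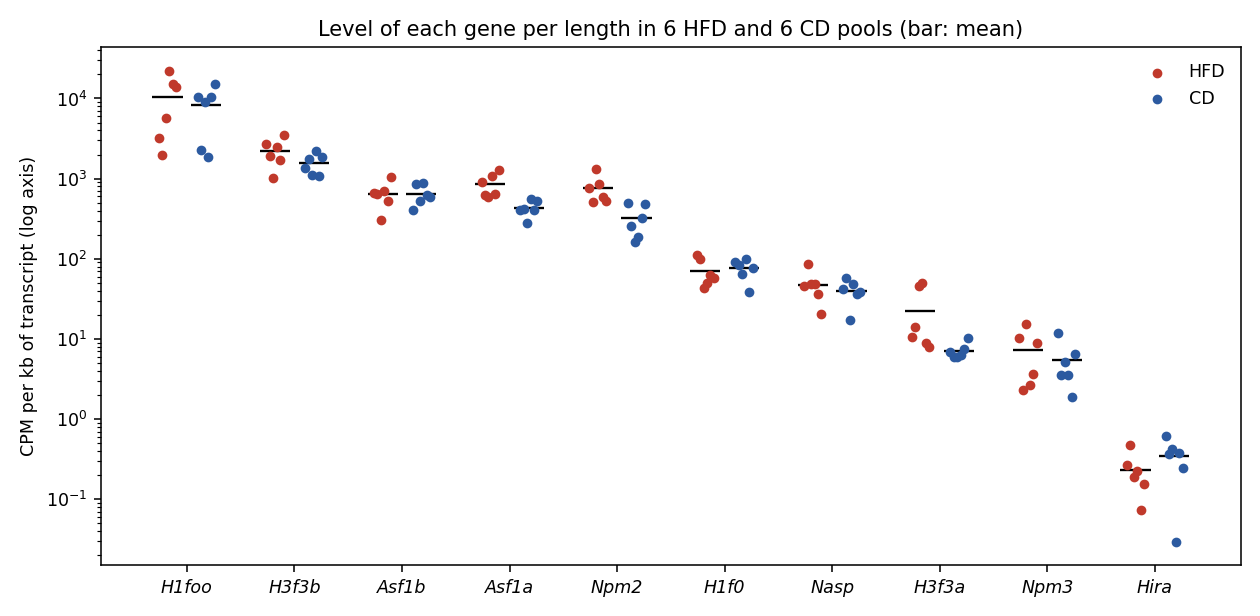
Level of each gene per length (CPM per kb of transcript, log axis) in each of the 6 HFD and 6 CD pools; points are pools and bars are means. H1foo was the highest in 11 of 12 pools, and Hira was the lowest in all 12.

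No member passed the threshold of an adjusted p of 0.05 between the diets, and neither did any other gene (edgeR's quasi-likelihood test with Benjamini-Hochberg adjustment, 0 of 9935 genes tested, 0%). Without adjustment, 3 of the 10 members had a p under 0.05, all of them higher in HFD (Npm2, Asf1a and H3f3a), where 13.4% of all genes tested were higher, 8.89% lower and 22.3% either. DESeq2 called the same 3 members higher (DESeq2, adjusted p = 0.0182, 0.0171 and 0.0176 in that order), where it called 4.92% of all genes higher, 2.82% lower and 7.74% in all. Limma-voom with quality weights called none of the 10 and 0.352% of all genes (0.322% higher and 0.0302% lower). In the 8 libraries with odd counts edgeR called none of the 10, and 4.03% of all genes (4.02% higher and 0.0177% lower). The HFD libraries among these were replicates 3 and 5 alone, and replicate 3 is the one that stood apart. For Npm2 and Asf1a the 6 HFD and the 6 CD libraries did not overlap, which was so for 2.45% of all genes tested (1.17% higher and 1.28% lower in HFD). With the trend with transcript length removed, the libraries of both genes overlapped. Of the 10 members, 7 had a log2 fold change above 0 and 3 below, with a median of 0.37, against 51.8% above 0 and a median of 0.040 over all genes tested. The members' median was −0.029 with the length trend removed. In pools of whole oocytes, fewer contributing cells and less RNA per cell cannot be told apart.

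**Figure D2:**
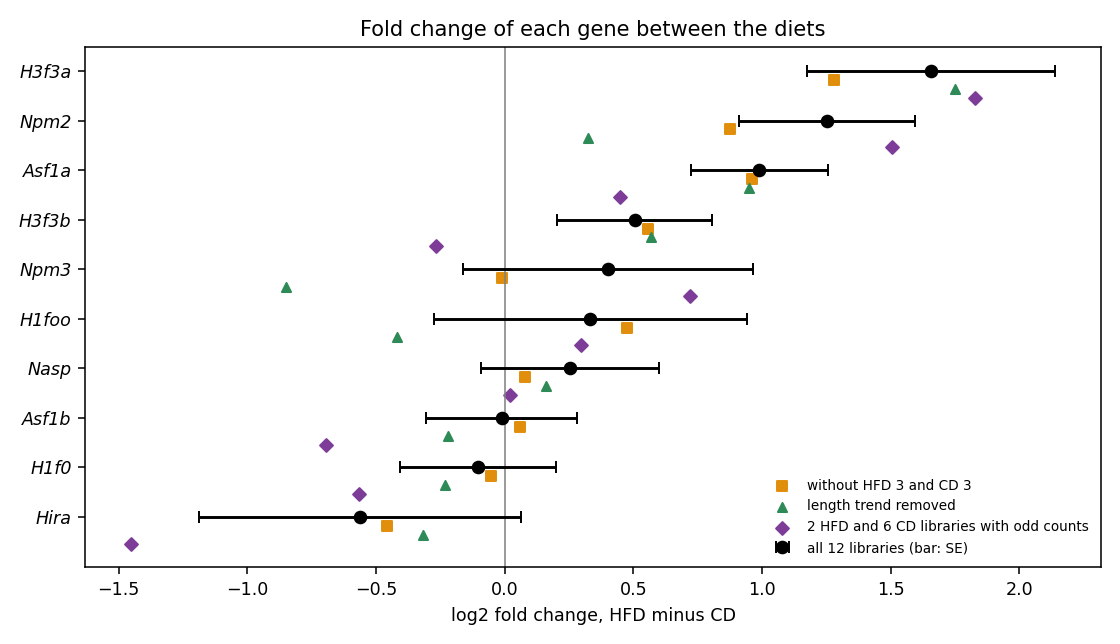
Log2 fold change (HFD minus CD) of each gene with its SE from all 12 libraries (black), and the same without both libraries numbered 3, with the trend with transcript length removed, or in the odd-count libraries alone (2 HFD, 6 CD). H3f3a, Npm2 and Asf1a lay to the right, at 1.66, 1.25 and 0.99, and the value of Npm2 was 0.33 with the length trend removed.

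H1foo encodes the linker histone of the oocyte (chromosome 6, 115944938 to 115950236, mm10, plus strand). Its level was 3541, 2180, 6273, 24570, 16664 and 15688 CPM in HFD replicates 1 to 6, and 11612, 2524, 10089, 2085, 11632 and 16773 CPM in CD replicates 1 to 6. HFD replicates 1 and 2 and CD replicates 2 and 4 were low, HFD replicate 3 lay between, and the other 7 libraries were at 10089 CPM or above. The highest pool exceeded the lowest by 11.3 times in HFD and by 8.04 times in CD. The log2 fold change was 0.33 ± 0.61 (SE), within what pools of 1 diet vary (edgeR, adjusted p = 0.784). It was −0.42 with the trend of expression with transcript length removed and −0.044 without HFD replicate 4. The spread of H1foo within a diet, an SD of 1.34 on the log2 scale, was larger than that of 84.8% of the genes tested.

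The genes whose pattern over the 12 libraries was most like that of H1foo, by the root-mean-square difference in centred log2 CPM, were Pla2g12a (0.16), Tmem9b (0.28) and Zar1 (0.32), against a median of 1.42 over the other 9934 genes tested. Zar1, an oocyte RNA-binding protein needed for the oocyte-to-embryo transition, ranged from 145 to 1260 CPM in HFD and from 142 to 1526 CPM in CD. Pla2g12a, a secreted phospholipase A2, ranged from 26.0 to 225 CPM in HFD and from 19.6 to 160 CPM in CD. As with H1foo, none of the 3 passed the test between the diets (edgeR, adjusted p = 0.745 for Pla2g12a, 0.578 for Tmem9b and 0.897 for Zar1). The choice by likeness to H1foo makes this likely, and 0 of 9935 genes tested passed.

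H1f0 encodes the linker histone H1.0, which in somatic tissues marks cells that have stopped dividing. It had 230, 203, 88.8, 102, 130 and 117 CPM in HFD replicates 1 to 6, and 186, 172, 134, 207, 80.0 and 158 CPM in CD replicates 1 to 6. The diets overlapped, and their log2 difference was −0.10 ± 0.30 (edgeR, adjusted p = 0.869). Within a library, H1foo counts exceeded H1f0 counts by 10.8 to 242 times in HFD and by 10.1 to 145 times in CD. The log2 of that ratio differed by 0.36 between the diets (two-sided exact permutation test, p = 0.671). Of the 9 other linker histone genes in the table, 3 had no count (Hils1, Hist1h1b and Hist1h1t) and 1, Hist1h1a, passed the filter. Hist1h1a averaged 1.35 ± 0.42 CPM in HFD and 1.21 ± 0.54 CPM in CD (log2 fold change 0.16 ± 0.51; edgeR, adjusted p = 0.883).

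**Figure D3:**
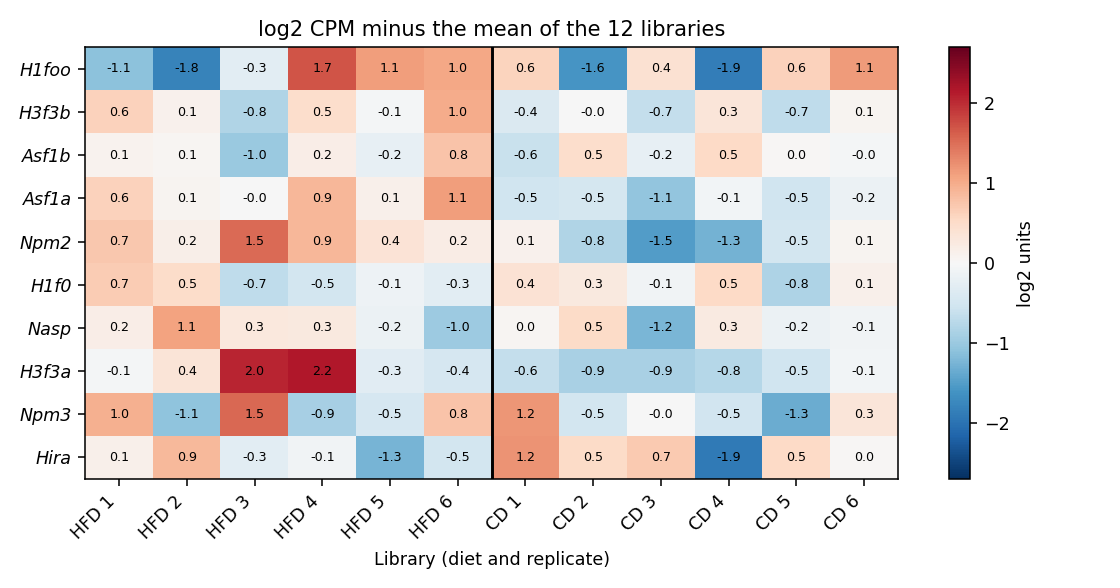
Log2 CPM of each gene in each library, less the mean of that gene over the 12 libraries (colour and number, in log2 units), with the 6 HFD libraries left of the line. H1foo is low in HFD replicates 1 and 2 and CD replicates 2 and 4, H3f3a is high in HFD replicates 3 and 4, and Asf1a is higher in every HFD library than in any CD library.

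Npm2 encodes nucleoplasmin 2, the maternal chaperone that in mouse organises the egg's nucleoli and chromatin (chromosome 14, 70647302 to 70659244, minus strand). Its level was 763, 509, 1318, 858, 593 and 528 CPM in HFD replicates 1 to 6, and 498, 259, 162, 188, 325 and 485 CPM in CD replicates 1 to 6. Every HFD library lay above every CD library, with 509 CPM in HFD replicate 2 close to 498 CPM in CD replicate 1. With DESeq2's size factors these libraries overlapped, with 504 CPM in the lowest HFD and 505 CPM in the highest CD library. On the log2 scale the diets differed by 1.25 ± 0.34 (edgeR, adjusted p = 0.0929). All 6 HFD libraries exceeded the mean of the CD libraries. HFD replicate 3 was the highest and CD replicate 3 the lowest, and without both the log2 fold change was 0.88. The transcript of Npm2 is short, at 997 nt against a median of 2977.5 nt over the genes tested, and with the trend with length removed the log2 fold change was 0.33 (edgeR, adjusted p = 0.644).

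The genes most like Npm2 in pattern were Pfdn1 (0.26), a subunit of the chaperone prefoldin, Rwdd1 (0.31) and Psma4 (0.32), a subunit of the proteasome core. The measure is again the root-mean-square difference in centred log2 CPM over 12 libraries, whose median over the other 9934 genes was 1.18. Their log2 fold changes were 1.34 for Pfdn1, 1.24 for Rwdd1 and 1.04 for Psma4 (edgeR, adjusted p = 0.0957, 0.0913 and 0.0956), a direction that the choice by likeness to Npm2 fixes. DESeq2, which called Npm2 too, called all 3 (adjusted p = 0.0216, 0.00158 and 0.0200), where it called 4.92% of all genes higher. Limma-voom called Rwdd1 (adjusted p = 0.0455), where it called 0.322% of all genes higher. The choice by likeness to Npm2 bears on these calls as well, so they are no separate support. With the length trend removed the values were 0.45 for Pfdn1, 0.46 for Rwdd1 and 0.28 for Psma4, and without HFD replicate 3 that of Pfdn1 was 0.89.

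Npm3, a relative of nucleoplasmin found mainly in nucleoli, was rare in these oocytes. It had 9.08, 2.03, 13.7, 2.36, 3.27 and 7.94 CPM in HFD replicates 1 to 6, and 10.7, 3.17, 4.54, 3.11, 1.68 and 5.80 CPM in CD replicates 1 to 6. The diets overlapped, and on the log2 scale they differed by 0.40 ± 0.56 (edgeR, adjusted p = 0.709). Without both libraries numbered 3 that value was −0.012, and with the length trend removed −0.85. Of the 50-base windows of the Npm3 transcript, 36.1% occur in transcripts of other annotated genes, chiefly the processed pseudogene Npm3-ps1, which itself had 0 to 2 counts in HFD and 1 to 4 counts in CD. Npm2 counts exceeded Npm3 counts by 66.0 to 354 times in HFD and by 35.3 to 188 times in CD, a difference of 1.01 on the log2 scale (two-sided exact permutation test, p = 0.0779; 0.156 adjusted over the 4 ratios compared).

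Asf1a and Asf1b encode paralogous H3-H4 chaperones, the acceptors of new histones ahead of HIRA and CAF-1. Asf1a (chromosome 10, 53596757 to 53609225, plus strand) had 1980, 1360, 1281, 2400, 1404 and 2817 CPM in HFD replicates 1 to 6, and 884, 919, 614, 1213, 886 and 1151 CPM in CD replicates 1 to 6. The lowest HFD library, replicate 3, lay above the highest CD library, replicate 4. The log2 difference of Asf1a was 0.99 ± 0.27 (edgeR, adjusted p = 0.0913), and it was 0.95 with the length trend removed. Within the 6 CD and 2 HFD libraries that hold odd counts (HFD replicates 3 and 5), it was 0.45 (edgeR, adjusted p = 0.563).

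Asf1b (chromosome 8, 83955507 to 83970197, plus strand), the paralogue linked to dividing cells, had 1170, 1150, 550, 1241, 941 and 1866 CPM in HFD replicates 1 to 6, and 724, 1524, 943, 1596, 1120 and 1070 CPM in CD replicates 1 to 6. HFD held both the lowest and the highest library. Between the diets Asf1b stood at −0.012 ± 0.29 on the log2 scale (edgeR, adjusted p = 0.984).

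The balance of the pair was the one measure of the 4 ratios between related genes that passed its test. The ratios were chosen with earlier results of these data known, so its p-value is not that of a fresh test. Asf1a counts were 1.69, 1.18, 2.33, 1.93, 1.49 and 1.51 times those of Asf1b in HFD replicates 1 to 6, and 1.22, 0.603, 0.651, 0.760, 0.791 and 1.08 times in CD replicates 1 to 6. Of the HFD libraries, 5 lay above all CD libraries. Set per transcript length, the ratio was 0.961 to 1.89 in HFD and 0.490 to 0.992 in CD. HFD replicate 2 and CD replicate 1 overlapped. On the log2 scale the ratio was 0.72 ± 0.34 in HFD and −0.28 ± 0.40 in CD, a difference of 1.01, or 2.01-fold (two-sided exact permutation test, p = 0.00433; 0.0173 adjusted over the 4 ratios). It does not depend on the scaling between libraries. Leaving out each library in turn gave differences from 0.91 to 1.12 (adjusted p from 0.00866 to 0.0346, exact permutation test), but without both libraries numbered 3 it was 0.84 and the call was lost (exact permutation test, adjusted p = 0.0635).

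The coding sequences of the pair are shown because their differences are what lets reads be assigned to one gene or the other. These are the first 120 bases from the start codon, 5′ to 3′, from GENCODE M21 transcripts on the mm10 build, with the bases that differ between the paralogues in capitals (chr10:53597190-53602358 for Asf1a and chr8:83955829-83965041 for Asf1b, both plus strand and each spanning an intron).

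Asf1a: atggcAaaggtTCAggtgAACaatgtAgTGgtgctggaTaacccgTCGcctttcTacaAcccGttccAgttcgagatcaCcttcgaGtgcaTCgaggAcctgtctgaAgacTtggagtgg

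Asf1b: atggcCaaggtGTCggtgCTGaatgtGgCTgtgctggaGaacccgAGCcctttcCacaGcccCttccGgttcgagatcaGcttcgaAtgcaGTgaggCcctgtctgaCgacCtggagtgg

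These stretches differ at 25 of 120 bases. Over the aligned coding sequences, 615 and 609 bases long, identity was 70.6% and the longest identical run was 20 bases. None of the 50-base windows of the Asf1b transcript occurs in another annotated gene. Of those of Asf1a, 65.8% lie on the opposite strand within transcripts of Mcm9, and since the chemistry does not mark strand, reads from that overlap cannot be told apart. Mcm9, a helicase of DNA repair, was counted at 134 to 224 reads in HFD and 67 to 214 reads in CD, against 12859 to 25536 reads of Asf1a in HFD and 6497 to 12102 reads in CD. For Mcm9 the diets differed by 0.18 ± 0.33 on the log2 scale (edgeR, adjusted p = 0.778).

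**Figure D4:**
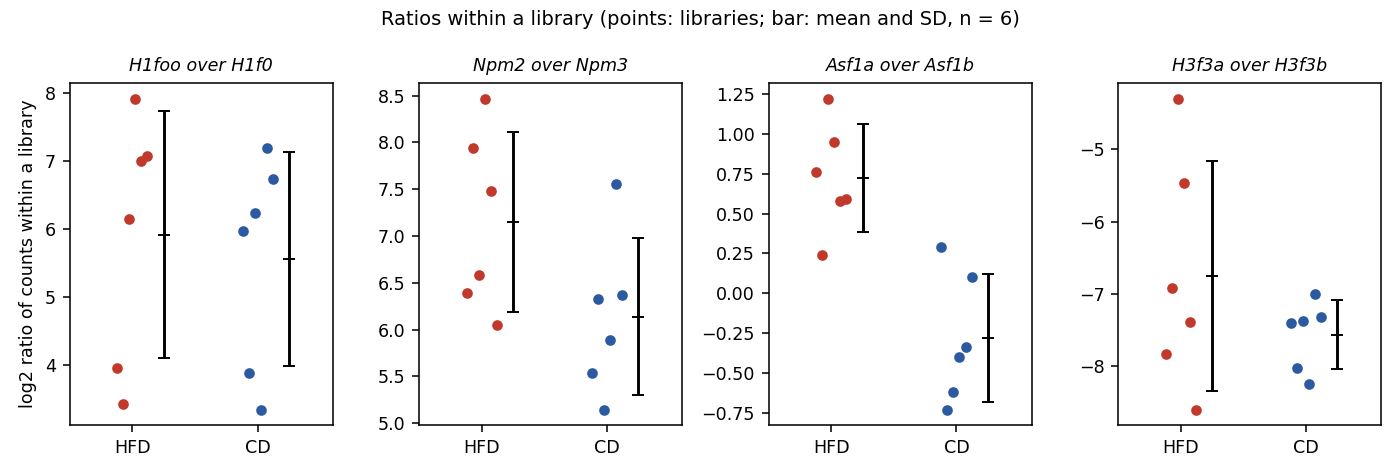
Log2 ratio of counts within each library for 4 pairs of related genes, with the mean and SD of the 6 HFD and 6 CD libraries beside the points. Asf1a over Asf1b averaged 0.72 in HFD and −0.28 in CD, while the diets overlapped widely for H1foo over H1f0.

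H3f3a and H3f3b encode the same H3.3 protein from different genes, on chromosome 1 (180800832 to 180813943) and chromosome 11 (116021912 to 116027962), both on the minus strand. H3f3b supplied nearly all H3.3 counts, and H3f3a made up 0.255% to 4.84% of the sum in HFD and 0.325% to 0.774% in CD. H3f3b had 6809, 4828, 2531, 6205, 4251 and 8896 CPM in HFD replicates 1 to 6, and 3381, 4427, 2827, 5540, 2742 and 4695 CPM in CD replicates 1 to 6. Of the HFD libraries, 3 lay above all CD libraries and 1, replicate 3, below all of them. The log2 fold change was 0.51 ± 0.30 (edgeR, adjusted p = 0.334), and it was 0.32 without HFD replicate 6 and −0.27 in the libraries with odd counts.

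The summed H3.3 level was 5651 ± 2192 CPM in HFD and 3956 ± 1128 CPM in CD, and 5 of 6 HFD pools exceeded the CD mean. The difference was 0.46 on the log2 scale (two-sided exact permutation test, p = 0.160). Without HFD replicate 3 it was 0.66 (exact permutation test, p = 0.0346). Among the libraries with odd counts, where HFD is replicates 3 and 5 alone, it was −0.18.

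H3f3a had 29.7, 39.6, 129, 140, 25.2 and 22.7 CPM in HFD replicates 1 to 6, and 19.8, 16.8, 16.9, 18.1, 21.4 and 29.4 CPM in CD replicates 1 to 6. HFD replicates 3 and 4 were far above the rest, and 4 of 6 HFD libraries lay above all CD libraries. H3f3a differed by 1.66 ± 0.48 on the log2 scale (edgeR, adjusted p = 0.0962), and it was 1.33 without HFD replicate 3 and 1.26 without HFD replicate 4. H3f3a counts were 0.00256 to 0.0509 times those of H3f3b in HFD and 0.00327 to 0.00781 times in CD, a difference of 0.81 on the log2 scale (two-sided exact permutation test, p = 0.297). That difference was 0.32 without HFD replicate 3, 0.36 without both libraries numbered 3 and 1.72 in the odd-count libraries.

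The start of the coding sequences of the H3.3 pair shows how far genes for one protein differ in their bases. Again the first 120 bases are given, 5′ to 3′, with differing bases in capitals (chr1:180811807-180811926 and chr11:116023890-116024009, mm10, both minus strand).

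H3f3a: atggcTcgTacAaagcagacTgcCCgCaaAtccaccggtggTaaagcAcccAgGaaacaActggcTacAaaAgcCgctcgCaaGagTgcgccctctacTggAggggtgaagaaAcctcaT

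H3f3b: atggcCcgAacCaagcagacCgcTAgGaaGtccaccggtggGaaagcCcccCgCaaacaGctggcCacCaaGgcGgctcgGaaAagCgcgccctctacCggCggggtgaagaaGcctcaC

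Here 24 of 120 bases differ, and over the 411 coding bases identity was 76.9%, with a longest identical run of 23 bases. Pseudogene copies share sequence with the pair, and their part in the counts was not tested. Windows of 50 bases shared with other annotated genes made up 30.3% of the H3f3a transcript, with 38 pseudogenes among the 41 genes that share them, and 8.40% of the H3f3b transcript. More of the shared H3f3a windows, 595 of 845, lie on the opposite strand in the long non-coding gene Gm17275, which had no row in the count table. The share of tallied reads that aligned to more than 1 place was 26.8% to 35.7% in HFD libraries and 18.6% to 26.5% in CD libraries, and its part in the values of H3f3a was not tested.

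Nasp, the chaperone of soluble H3-H4 (chromosome 4, 116601052 to 116627941), had 96.1, 183, 103, 102, 76.6 and 43.0 CPM in HFD replicates 1 to 6, and 88.3, 123, 36.4, 102, 76.5 and 80.5 CPM in CD replicates 1 to 6. HFD replicate 2 was the highest library and CD replicate 3 the lowest, and the diets overlapped. Nasp had a log2 difference of 0.25 ± 0.35 (edgeR, adjusted p = 0.703).

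Hira, the subunit that names the H3.3 deposition complex (chromosome 16, 18877037 to 18970309), had 3 to 22 counts per HFD library and 1 to 29 counts per CD library. Its level was 1.13, 2.03, 0.797, 0.946, 0.307 and 0.662 CPM in HFD replicates 1 to 6, and 2.62, 1.54, 1.80, 0.125, 1.57 and 1.05 CPM in CD replicates 1 to 6. The log2 fold change was −0.56 ± 0.63 (edgeR, adjusted p = 0.632), and counts this low leave little precision: it was −0.33 without CD replicate 1 and −0.91 without HFD replicate 2. Of the 50-base windows of its transcript, 64.4% are shared with the annotated gene Gm28539, which had no row in the count table. Of its partners in the complex, Ubn1 averaged 82.3 ± 27.9 CPM in HFD and 95.4 ± 42.7 CPM in CD (edgeR, adjusted p = 0.728), and Cabin1 averaged 47.5 ± 11.9 CPM in HFD and 62.2 ± 36.6 CPM in CD (edgeR, adjusted p = 0.555).

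Other genes of histone supply were read from 7 lists, with the 10 members left out. Of 66 genes in the table, 53 were tested, 27 with a log2 fold change above 0 and 26 below, with a median of 0.076 against 0.040 over all genes tested. With edgeR 0 of the 53 passed. At an unadjusted p under 0.05, 5 were higher and 2 lower, where 13.4% of all genes tested were higher and 8.89% lower. DESeq2 called 1 higher and 1 lower, where it called 4.92% of all genes higher and 2.82% lower. Among chaperones of H3-H4, 7 of 18 were above 0 and 11 below, with a median of −0.15. Dnajc9, a heat-shock co-chaperone that binds H3-H4, averaged 295 ± 103 CPM in HFD and 159 ± 65.8 CPM in CD, and 6 of 6 HFD pools exceeded the CD mean (log2 fold change 0.89 ± 0.33; edgeR, adjusted p = 0.137). For Dnajc9 it was 0.56 with the length trend removed and 0.49 in the odd-count libraries. Mcm2, a subunit of the replicative helicase that also holds H3-H4, averaged 64.6 ± 15.0 CPM in HFD and 121 ± 45.9 CPM in CD. Its log2 fold change was −0.91 ± 0.29 (edgeR, adjusted p = 0.106, and DESeq2, adjusted p = 0.0380). Every HFD library lay below the lowest CD library, which was so for 1.28% of all genes tested. The gap was small, with 84.6 CPM in the highest HFD and 85.8 CPM in the lowest CD library. Whether the gap holds under other scalings was not tested. Rbbp7, a histone-binding subunit of many chromatin complexes, averaged 8007 ± 3931 CPM in HFD and 9560 ± 1750.5 CPM in CD (log2 fold change −0.26).

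Chaperones of H2A-H2B had 7 of 13 tested genes above 0 and 6 below, with a median of 0.088. Npm1, nucleophosmin of the nucleolus, averaged 910 ± 220 CPM in HFD and 626 ± 130 CPM in CD (log2 fold change 0.54 ± 0.24; edgeR, adjusted p = 0.206). For Npm1 it was 0.22 with the length trend removed and 0.23 in the odd-count libraries. Ssrp1, a subunit of the FACT complex, averaged 51.2 ± 13.5 CPM in HFD and 76.8 ± 18.8 CPM in CD (log2 fold change −0.58 ± 0.27; edgeR, adjusted p = 0.213). Histone variants of H2A and H2B had 7 of 8 tested genes above 0, with a median of 0.80, which was −0.17 with the length trend removed. H2afv, which encodes a form of H2A.Z, averaged 48.9 ± 43.2 CPM in HFD and 16.7 ± 10.2 CPM in CD (log2 fold change 1.55 ± 0.65; edgeR, adjusted p = 0.187). For H2afv it was 0.98 without HFD replicate 3 and 0.94 without both libraries numbered 3. H2afj averaged 8.94 ± 13.1 CPM in HFD and 2.22 ± 0.80 CPM in CD. Its log2 difference of 2.01 ± 0.74 (edgeR, adjusted p = 0.139; DESeq2, adjusted p = 0.0485) was 0.72 without HFD replicate 3. Cenpa, the H3 variant of the centromere, averaged 186 ± 27.9 CPM in HFD and 149 ± 39.1 CPM in CD (log2 fold change 0.32 ± 0.24; edgeR, adjusted p = 0.454). The value of Cenpa was 0.19 without CD replicate 3 and −0.091 with the length trend removed.

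The genes that process replication-dependent histone mRNA had 2 of 6 above 0 and 4 below, with a median of −0.31. Slbp, which binds the stem-loop at the end of these mRNAs, averaged 11149 ± 3984 CPM in HFD and 10262 ± 2477 CPM in CD (log2 fold change 0.12). Lsm10, a small protein of the U7 particle, averaged 67.2 ± 138 CPM in HFD and 4.84 ± 2.18 CPM in CD, with 348 CPM in HFD replicate 3. Its log2 fold change of 3.79 ± 1.04 (edgeR, adjusted p = 0.0929) was 1.16 without that library. Npat, a coactivator of histone gene transcription, averaged 12.1 ± 4.26 CPM in HFD and 22.7 ± 17.1 CPM in CD (log2 fold change −0.90 ± 0.43; edgeR, adjusted p = 0.226). The value of Npat was −0.41 without CD replicate 3 and −0.29 without both libraries numbered 3. Remodellers that move or exchange histones had 2 of 6 above 0 and 4 below, with a median of −0.24. Of these, Smarcad1 stood at −0.79 ± 0.37 and Ep400 at −0.75 ± 0.38 on the log2 scale (edgeR, adjusted p = 0.227 and 0.258). Without CD replicate 3 Smarcad1 was at −0.30, and without CD replicate 1 Ep400 was at −0.50.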

How the data were processed

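The authors deposited raw gene counts, without normalisation, in 1 table of 24062 gene symbols by 12 libraries. STAR, HTSeq 1.0.0, DESeq2 1.0.19 and mm10 are named, per the submitters' processing notes. How reads were counted, and on which annotation, was not given in the sources used here. Per the labels' protocols, cDNA was made with SMART-Seq v4 and libraries with Nextera XT, which do not mark strand. The 5 lines of unassigned reads, 66.5% to 72.9% of tallied reads in HFD and 62.3% to 66.6% in CD, were kept out of library sizes and tests. Without molecular identifiers, counts are of reads and not of molecules.

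HFD was compared with CD in edgeR 4.0.16 (R 4.3.3) by TMM scaling, filterByExpr and a robust quasi-likelihood test, adjusted by Benjamini-Hochberg over the 9935 genes that passed. Each SE is the fold change over the root of F. DESeq2 1.42.0 and limma 3.58.1 were alternatives. DESeq2 gave some genes no adjusted p, Hira and Lsm10 among them. Such genes count as not called in its shares over the 9935 genes. All 10 members passed the filter with counts as deposited, but Hira did not with the counts of the all-even libraries halved. Log2 CPM used a prior count of 2. Ratios of counts within a library used a prior of 0.5 and a two-sided exact permutation test over the 924 assignments of 6 of 12 libraries, whose smallest p is 0.00216, and were adjusted over 4 ratios. Positions and lengths came from GENCODE M21 (mm10): 22758 symbols matched, and the longest APPRIS principal transcript gave the length. Windows of 50 bases were matched between its transcripts on both strands. Coding sequences were aligned with Biopython 1.88. The fit was tested on simulated data, drawn with less spread between libraries than these data have, so that test does not give the power here. Named genes were the members, up to 2 genes of the smallest p per list, Gdf9, Bmp15, and the 3 most like H1foo and Npm2 in pattern; Ubn1, Cabin1, Rbbp7, Slbp and Mcm9 were added after their values were seen. Members, lists and ratios were chosen with earlier results of these data known.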

Additional observations from a re-analysis of the deposited data

Results flagged for a closer look

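H3f3a in CD replicate 6 was flagged because its 29.4 CPM lay far from the other CD libraries, which held 16.8 to 21.4 CPM. It was the one flag among 28 sets of 6 libraries looked at (10 genes and 4 ratios in each diet), where chance flags about 1 in 20 sets.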

How the results depend on the processing

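The number of genes called was 769 with DESeq2's test, 35 with limma-voom and 456 in the libraries with odd counts, against 0 with edgeR. Members called were 3 with DESeq2, and wider-list genes called were 2 with DESeq2 and 1 in the odd-count libraries. The median log2 fold change of the members was −0.029 with the length trend removed. Halving the counts of the all-even libraries gave 0 genes and 0 members called. The members' median was then 0.41, without Hira, which did not pass the filter in that setting. Members whose libraries did not overlap numbered 1 with DESeq2 size factors, 1 with total counts only and 0 with the length trend removed (chosen after seeing the data), against 2. The difference in Asf1a over Asf1b was 1.18 in the odd-count libraries (exact permutation test, adjusted p = 0.143) and 1.01 by sign flips between libraries of the same number (exact, adjusted p = 0.125). The smallest unadjusted p these designs allow are 0.0357 and 0.0312. A single ratio at that floor cannot pass once adjusted over 4 ratios, so these 2 settings cannot decide the call. Without both libraries numbered 3 it was 0.84. The H3.3 total was −0.18 in the odd-count libraries, and the cumulus and granulosa sum differed by 188 CPM without both libraries numbered 3, against −17.9 CPM.

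Signs turned with the length trend removed for H1foo (−0.42), Npm3 (−0.85), Hist1h1a (−0.89), Cenpa (−0.091) and Pla2g12a (−0.046). They also turned with limma-voom for H1f0 (0.031) and Asf1b (0.10), without both libraries numbered 3 for Npm3 (−0.012), Asf1b (0.058) and Hist1h1a (−0.092), and in the odd-count libraries for H3f3b (−0.27) and Zar1 (0.19). With each library left out in turn, log2 fold changes ran from −0.20 to 0.12 for Asf1b, −0.044 to 0.59 for H1foo, −0.0053 to 0.40 for Nasp, −0.079 to 0.28 for Hist1h1a and −0.41 to 0.11 for Zar1. The log2 ratio of H1foo over H1f0 ran from −0.082 to 0.86, the H3.3 total from 0.31 to 0.66, and the cumulus and granulosa sum from −253 to 91.6 CPM. Where no value above shows it, the cause was not tested.

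Whether libraries of the same number share more than a number was not given in the sources used here. Their deviations correlated from −0.452 to 0.550, and in 2 of 6 pairs the HFD library correlated best with its own number. Such correlations cannot settle it. With the replicate number as a block, 0 genes and 0 members were called, as without it.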
